A study of Mus musculus with 6 samples.

Results

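This is a description of 45 genes that copy DNA, as they were expressed in B16F10 cells, an established line of mouse melanoma cells with a wild-type genotype in the labels. The genes were listed by symbol, from the origin recognition complex to the DNA ligase that seals new strands, and all 45 were found among the 27179 genes of the RNA-seq table. RNA came from cells kept for 6 h with 0.01% ozonated olive oil (OZO, 3 libraries) or with 0.01% olive oil (OLO, 3 libraries), in medium with fetal bovine serum. The labels do not say whether the libraries of a group came from separate cultures, but the study describes its B16F10 transcriptomic data as coming from independent experiments. The level of each gene analysed here is the authors' mean over all 6 libraries, OZO and OLO together, so the results concern how much of each transcript these cells held and not how the oils differed. The authors' fold changes and p-values were not used here, and with no value for single libraries neither a spread between libraries nor a test could be given.

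DNA replication begins at origins, which the origin recognition complex (ORC) marks on chromatin. CDC6 and CDT1 then load the ring-shaped MCM2-7 helicase, a step known as licensing, and geminin blocks CDT1 so that no origin is licensed again in the same cycle. The kinase CDC7 with DBF4, and CDK2 with cyclin E, switch the loaded helicase on, as CDC45 and the GINS complex join it. Polymerase alpha-primase lays down primers, the RFC complex loads the sliding clamp PCNA, and polymerases delta and epsilon extend the new strands while RPA covers single-stranded DNA. FEN1 and DNA ligase 1 join the Okazaki fragments. Many of these genes are textbook targets of the E2F transcription factors, which become active as cells enter S phase.

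Markers of the melanocyte lineage, from which melanoma arises, were high in the same values. All 7 melanocyte markers were above 1 CPM (a count scaled to the size of its library), from 109 CPM for Sox10, a lineage transcription factor, to 7052 CPM for Dct, an enzyme of melanin synthesis. Of the 4 keratinocyte and 4 immune markers none reached 1 CPM, and Krt5 had no read in any library. Pecam1 among 3 endothelial markers (1.21 CPM), and Pdgfra (3.28), Col1a1 (1.70) and Col1a2 (1.15) among 4 fibroblast markers, were the others above 1 CPM. Summed over each list, the levels were 17193 CPM for melanocyte, 6.44 for fibroblast, 1.36 for endothelial, 0.663 for immune and 0.142 for keratinocyte markers. As a geometric mean over the libraries, 1 CPM stood for 19.6 reads.

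All 45 replication genes were above 1 CPM, as were 43.7% of all genes and 53.8% of the protein-coding genes in the table. Of the 45 genes, 44 (97.8%) reached 16 CPM and 24 (53.3%) reached 64 CPM, against 68.1% and 33.7% of the 11186 protein-coding genes with at least 1 CPM. Their median level was 6.06 log2 CPM, or 66.5 CPM, beside a median of 5.13 log2 CPM for those 11186 genes. Pcna was the highest at 8.88 log2 CPM (472 CPM) and Gins2 the lowest at 3.77 log2 CPM (13.7 CPM), a span of 34.5-fold. Gins2 rested on 269 reads per library as a geometric mean, and Pcna on 9264. Counting error alone was then between 0.424% and 2.49% of a gene's level, which leaves out all variation between libraries. RNA was taken from whole cultures, so that fewer cells in S phase and less RNA per cell cannot be told apart in any of these levels.

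**Figure D1:**
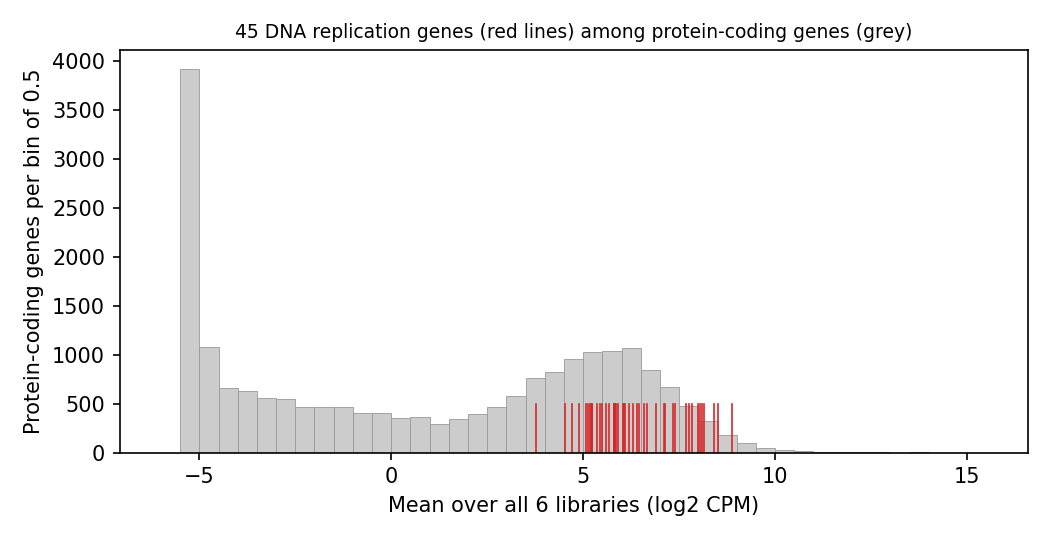
The grey bars count protein-coding genes in bins of 0.5 along the mean level over all 6 libraries (log2 CPM), and each red line, of arbitrary height, is a replication gene. The 45 lines run from 3.77 to 8.88 log2 CPM and none lies among the genes near or below 0 log2 CPM.

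Reads of a gene grow with its length, so genes are compared below as CPM per kilobase, the length being the union of the gene's exons in GENCODE M21 (GRCm38, the mm10 build). The exons over which the authors counted reads may differ from this union. In CPM per kilobase the replication genes had a median of 18.3, with an interquartile range from 12.0 to 41.5. For the protein-coding genes that reached 1 CPM, the median was 7.44 and the interquartile range ran from 2.60 to 18.1. Among all 20753 protein-coding genes with a length, 41 of the 45 members stood at or above the 75th percentile and 18 at or above the 90th. Across the 45 genes, exon length and CPM per kilobase had a Spearman correlation of -0.25, given as a description since the length enters the second measure.

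**Figure D2:**
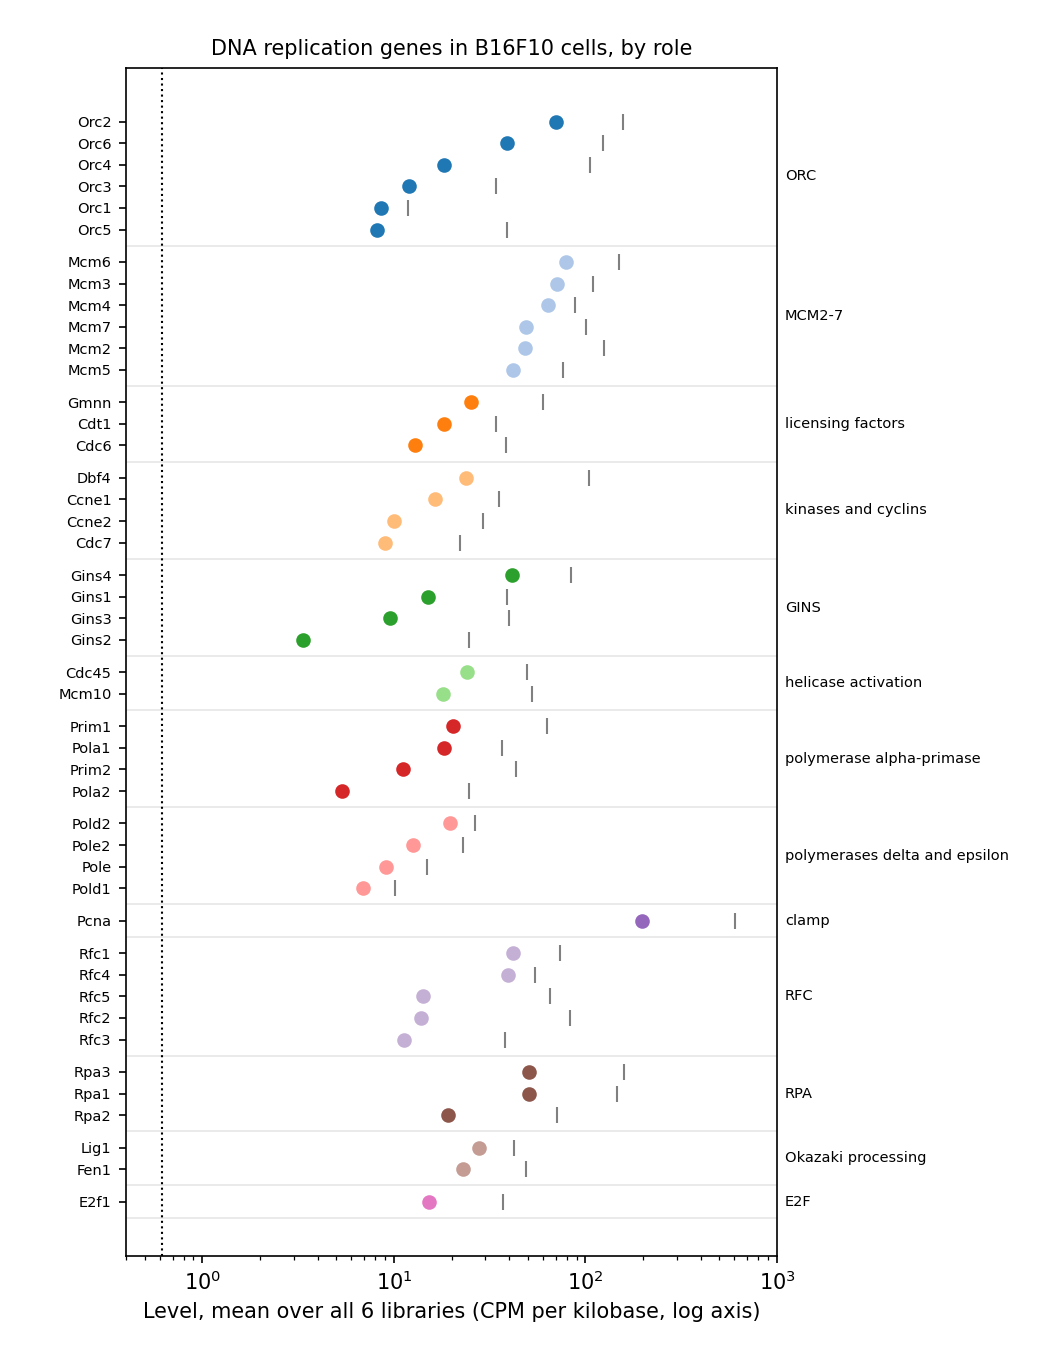
Each filled point is the level of a replication gene in CPM per kilobase of exon union (log axis), each grey tick the same gene per kilobase of coding length, and the dotted line the median of all protein-coding genes (0.618). Pcna stands alone at 197, the 6 subunits of MCM2-7 lie close together between 42.0 and 78.8, and Gins2 has the lowest point at 3.34.

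The sliding clamp had the most abundant transcript, and the helicase genes were all high. Pcna, which rings the DNA and holds the polymerases on it, had 197 CPM per kilobase, a percentile of 99.4 among protein-coding genes. It lies on chromosome 2 from 132249162 to 132253314 on the minus strand of GRCm38. Its value carries a doubt, because the pseudogene Pcna-ps2 on chromosome 19 shares 781 bases of the transcript at 99.2% identity, and reads from either copy could have been placed on the other. MCM2-7, the helicase ring that unwinds the double helix, contains each of its subunits once. The levels of its genes were 48.6 CPM per kilobase for Mcm2, 70.8 for Mcm3, 63.9 for Mcm4, 42.0 for Mcm5, 78.8 for Mcm6 and 48.9 for Mcm7. The highest, Mcm6, was thus 1.88 times the lowest, Mcm5. Among ORC, MCM2-7, GINS, RFC and RPA this was the narrowest range, and it was 1.95-fold with the longest transcript and 1.96-fold with the coding length as the measure of length. The percentiles of the 6 among protein-coding genes ran from 95.1 to 98.0. The processed pseudogene Gm5487 on chromosome 16 matches 2157 bases of the Mcm7 transcript at 97.7% identity, and Gm15654 matches 182 bases of Mcm6 at 95.6%.

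The subunits of ORC, by contrast, spread over 8.57-fold. Orc2 had 70.4 CPM per kilobase and Orc6 had 39.2, levels in the range of the MCM genes or just below it. Orc4 (18.3), Orc3 (12.0), Orc1 (8.58) and Orc5 (8.21) followed. Orc2 remained the highest with each of the 3 lengths tried. Orc5 and Orc1 were close together, and Orc1 was the lowest once the longest transcript (9.91) or the coding length (11.9) was used. Orc1 is the largest ORC subunit, carries an ATPase domain, and is known in human cells as a subunit that is degraded in the course of the cell cycle. Of the Orc2 gene, 29.8% of the exon bases overlap Nif3l1 on the other strand, which had 40.0 CPM beside 271 CPM for Orc2.

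**Figure D3:**
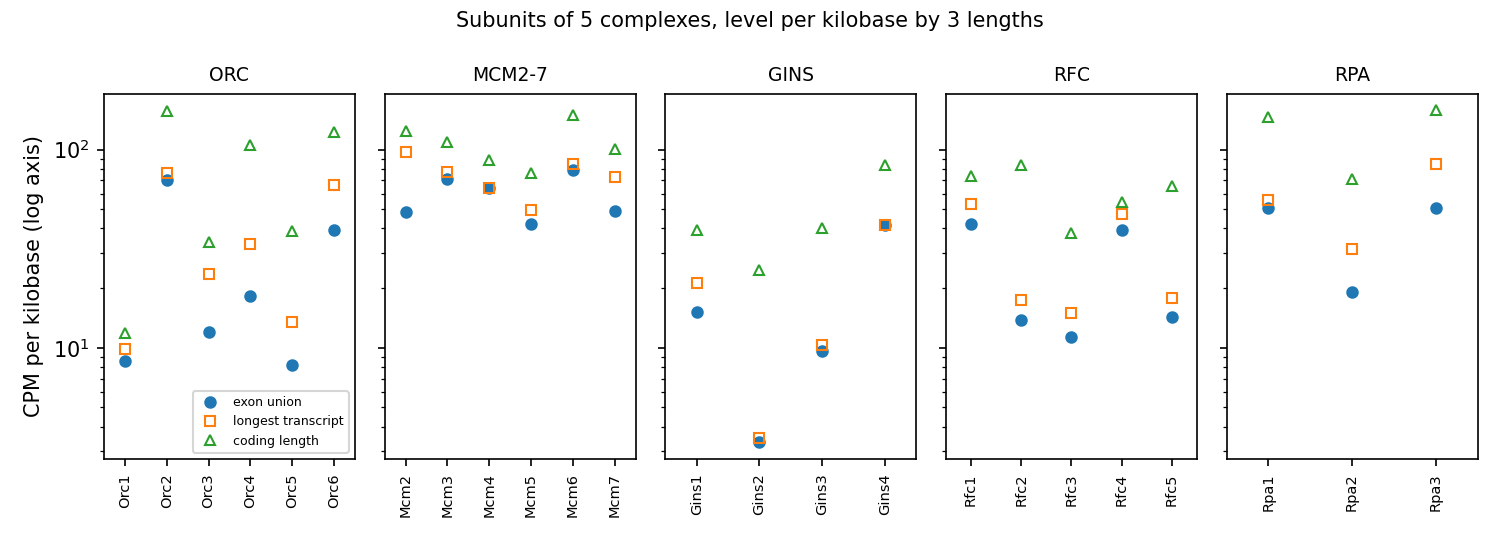
Levels of the subunits of ORC, MCM2-7, GINS, RFC and RPA in CPM per kilobase (log axis), with the length taken as the exon union (filled circles), the longest transcript (squares) or the coding sequence (triangles). The MCM2-7 subunits stay within 1.96-fold of each other by every length, whereas the ORC subunits differ by at least 7.69-fold.

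Transcripts of the factors that load the helicase or block its loading were less abundant than those of the helicase genes. Cdc6, an ATPase that works with ORC, had 12.9 CPM per kilobase, and Cdt1, which brings MCM2-7 to the origin, had 18.2. Gmnn, which encodes the CDT1 inhibitor geminin, was the highest of the 3 at 25.2. A processed pseudogene of Cdc6 on the X chromosome, Gm9430, matches 1528 bases at 95.2% identity. All 3 levels lay below that of Mcm5, the lowest of the MCM2-7 genes.

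Genes that fire the licensed origin were of the same order. Dbf4, the activating subunit, had 23.7 CPM per kilobase, while Cdc7, the kinase it activates, had 8.97. Dbf4 is the gene whose level depends most on the length used among these 4, because its exon union of 8.73 kb is far longer than its longest transcript of 2.51 kb. Per kilobase of that transcript it had 82.4. The cyclins E, which activate CDK2 at the start of S phase, were at 16.3 for Ccne1 and 10.1 for Ccne2. E2f1, which encodes a transcription factor that drives many of these genes, had 15.2 CPM per kilobase (5.59 log2 CPM).

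Within the active helicase, CDC45 and GINS bind MCM2-7 in equal number. Cdc45 had 24.0 CPM per kilobase. The GINS genes had the widest range of the 5 complexes on the exon union, 12.4-fold, from 41.5 for Gins4 through 15.2 for Gins1 and 9.58 for Gins3 to 3.34 for Gins2. The width of this range depended on the length used, and it was still 11.8-fold with the longest transcript. Gins2 has a transcript of 3.90 kb with a short coding sequence of 0.555 kb, and per kilobase of coding sequence the range fell to 3.39-fold, from 24.6 for Gins2 to 83.7 for Gins4, narrower than that of ORC. Gins2 lies on chromosome 8 from 120578633 to 120589304 on the minus strand, and 67.3% of the Gins2 exon bases are shared with Gse1 on the opposite strand, which had 19.3 CPM beside 13.7 for Gins2. Mcm10, a scaffold needed to start unwinding, had 18.1 CPM per kilobase.

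Among the polymerases, the catalytic and accessory subunits of each enzyme were not at equal levels. In polymerase alpha-primase, the primase genes Prim1 (20.4 CPM per kilobase) and Prim2 (11.1) and the catalytic gene Pola1 (18.3) stood above Pola2 (5.38), the accessory subunit. In polymerase delta, which copies the lagging strand, Pold2 (19.6) was above the catalytic gene Pold1 (6.94). In polymerase epsilon, which copies the leading strand, Pole2 (12.7) was above the catalytic gene Pole (9.12). These last 2 differences kept their direction with the longest transcript (22.6 against 9.65 for Pold2 and Pold1, and 21.4 against 14.2 for Pole2 and Pole) and with the coding length (26.4 against 10.2, and 23.1 against 14.9). The order of Pola1, Prim1 and Prim2 depended on the length. Per kilobase of the longest transcript Pola1 had 30.2, Prim2 27.0 and Prim1 25.2, and per kilobase of coding length Prim1 had 62.8, Prim2 43.6 and Pola1 36.7. Pold1 was among the 5 lowest replication genes by each of the 3 lengths, as was Orc1.

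The clamp loader RFC has a large subunit, encoded by Rfc1, and 4 small ones. Rfc1 had the highest level at 42.0 CPM per kilobase, closely followed by Rfc4 at 39.5, whereas Rfc5 (14.3), Rfc2 (13.9) and Rfc3 (11.3) lay near each other. With the coding length, Rfc2 became the highest at 83.6, and the range narrowed from 3.72-fold to 2.19-fold. Exons of 3 of these genes overlap a neighbour on the other strand: Rfc4 with Eif4a2 (12.7% of its exon bases), Rfc2 with Lat2 (15.1%) and Rfc5 with Wsb2 (10.7%). Eif4a2, with 330 CPM, was far more abundant than Rfc4 with 60.5 CPM. The pseudogene Gm12870 also matches 1020 bases of Rfc5 at 96.2% identity.

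RPA, the complex of 3 proteins that covers single-stranded DNA, had Rpa3 at 50.6 and Rpa1 at 50.5 CPM per kilobase, a difference smaller than counting error. That near equality held on the exon union alone, since Rpa3 had 84.2 and Rpa1 55.4 per kilobase of the longest transcript, and 158 and 146 per kilobase of coding length. Rpa2 was lower at 19.1 on the exon union and stayed the lowest of the 3 by each length. In CPM not divided by length, Rpa1 (281 CPM) was far above Rpa3 (57.4 CPM), whose exon union is 1.14 kb long against 5.58 kb for Rpa1. The enzymes of Okazaki fragment joining were at 23.1 for Fen1, the flap nuclease, and 27.9 for Lig1, the ligase. An antisense gene, Gm10143, covers 78.8% of the Fen1 exon bases. No row for it was found among the Ensembl identifiers of the table, so its own reads were not analysed here.

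Exons of 17 of the 45 genes share at least 1 base with another annotated gene. For 8 the share was above 10%, in each case with a gene on the other strand, whereas Orc5, Pole2 and Rpa1 share exon bases only with genes on their own strand. The libraries were made with a kit that keeps the strand, but whether the strand was used in counting is not given in the sources used here. Nor is it given how reads in shared exons were assigned. Levels of overlapping genes may thus include reads of neighbours on either strand or lack reads of their own. Copies elsewhere in the genome, with at least 95% identity over 150 bases or more, were found for 5 genes: Pcna, Mcm6, Mcm7, Cdc6 and Rfc5. None of these copies was found among the Ensembl identifiers of the table. Only 24126 of its 27179 genes carry such an identifier, and the others were not searched for copies.

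The genes were also examined for sequence that the choice of members did not use. RefSeq promoter windows (GRCm38.p6), from 250 bases before to 50 bases after the start of transcription that RefSeq gives, were at hand for 36 of the 45 genes, in 45 windows, and 36 of these windows opened a transcript annotated in GENCODE. Windows for Mcm4, Gmnn, Ccne2, Gins1, Gins2, Gins4, Prim2, Pole and Rfc2 were not used here. E2F factors bind variants of the letters TTTCGCGC, and 5 such words were searched on both strands: TTTCGCGC, TTTGGCGC, TTTCCCGC, TTTGCCGC and TTTCGCCC. Hits may overlap each other. At least 1 was present for 14 of the 36 genes, or 38.9% (24.8% to 55.1%, a 95% Wilson interval that takes each gene as a separate draw). Of all 27025 genes with a window 2.95% had a hit, and of the 9373 such genes with at least 1 CPM 5.60% did. The shares depended on the search. In the part of the window before the start they were 25% of members, 2.46% of all genes and 4.65% of genes with at least 1 CPM, and for the first 6 letters of the words they were 75%, 49.1% and 50.7%. Only the first 3 words occurred in member windows, on 6, 7 and 7 occasions.

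By role, the motif was present in 4 of the 5 MCM2-7 genes that had a window, all but Mcm2. Both licensing factors with a window, Cdc6 and Cdt1, held it, as did 2 of 6 ORC genes, 2 of 3 genes of polymerases delta and epsilon, and Gins3, Pola1, Rfc3 and Lig1. It was found in none of the 3 kinase and cyclin genes with a window, none of the 3 RPA genes, and not in Pcna, E2f1, Cdc45, Mcm10 or Fen1. An absent match says only that these exact letters are not in this window. Of 9 members with the motif before the RefSeq start, 5 have it where the 60 bases around it overlap the span of the gene, all its transcripts together, in GENCODE. The stretches of the other 4, Mcm5, Mcm6, Orc3 and Pola1, lie outside the gene in GENCODE as well and are shown for that reason, 5′ to 3′ along the gene with the motif in capitals.
Mcm5 (chr8:75109334-75109393, plus strand): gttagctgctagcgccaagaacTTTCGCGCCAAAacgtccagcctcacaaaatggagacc
Mcm6 (chr1:128359719-128359778, minus strand): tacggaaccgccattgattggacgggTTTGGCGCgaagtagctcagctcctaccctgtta
Orc3 (chr4:34614950-34615009, minus strand): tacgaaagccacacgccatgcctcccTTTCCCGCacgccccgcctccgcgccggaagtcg
Pola1 (chrX:93632260-93632319, minus strand): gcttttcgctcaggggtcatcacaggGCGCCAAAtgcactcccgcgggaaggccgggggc

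Counted along the gene with 0 at the RefSeq start, these stretches begin at -175 for Mcm5, -73 for Mcm6, -67 for Orc3 and -164 for Pola1. In Mcm5 the capitals are a pair of overlapping words on opposite strands, and Mcm6 has a like pair further upstream. Orc3 carries a single word on its own strand and Pola1 a single word on the opposite strand. Levels did not separate the genes with the motif from those without: the 14 genes with it had a median of 15.6 CPM per kilobase and ranged from 6.94 (Pold1) to 78.8 (Mcm6), and the 22 without it had a median of 21.7 and ranged from 5.38 (Pola2) to 197 (Pcna). The CCAAT box, a common promoter element searched after the E2F result was known, was in the windows of 58.3% of the 36 genes, beside 41.1% of all genes and 43.6% of those with at least 1 CPM.

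**Figure D4:**
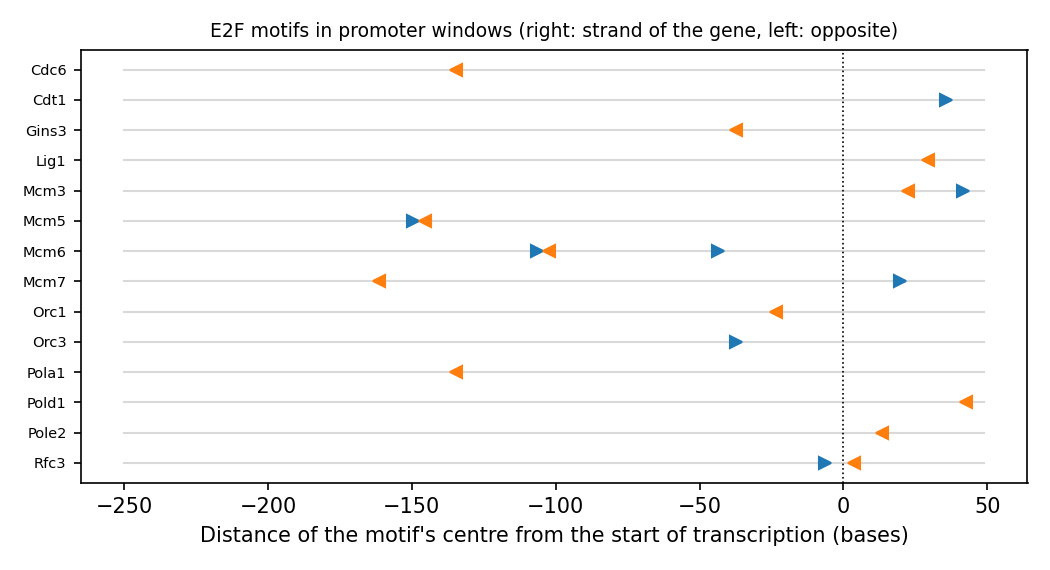
Position of each E2F word in the promoter windows of the 14 genes that hold one, as the distance of its centre from the RefSeq start of transcription in bases. Triangles to the right mark words on the gene's own strand and triangles to the left those on the opposite strand, and 13 of the 20 words begin within 100 bases before the start or after it.

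Positions in the genome were also examined. The 45 genes lie on 14 chromosomes, with 9 on chromosome 5, 6 on chromosome 8 and 5 on chromosome 2. All genes were not counted by chromosome for comparison. A protein-coding neighbour on the other strand, with its start within 1000 bases, was annotated for 13 of the 45 (28.9%, 95% Wilson interval 17.7% to 43.4%). The share was 11.0% of all protein-coding genes in the table and 17.6% of those with at least 1 CPM. In 8 of the 13 pairs the starts lay apart, and in 5 the genes overlapped. Overlapping starts were added to the definition after the count for starts apart had been seen. That first count was 17.8% of members, 6.95% of all protein-coding genes and 11.2% of those with at least 1 CPM. The interval above is for the wider definition, and none was computed for the first count.

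The level of the replication gene and that of its neighbour were often far apart. Mcm7 had 20.9 times the CPM per kilobase of Ap4m1, Rpa1 13.0 times that of Smyd4, and Orc4 10.8 times that of Mbd5. Mcm4 had 9.10 times the level of Prkdc, which encodes the DNA-dependent protein kinase of break repair and starts 466 bases away. In 3 pairs the levels were within 10% of each other, namely Cdc45 with Ufd1 (24.0 and 22.4 CPM per kilobase), Orc3 with Rars2 (12.0 and 11.5) and Orc1 with Prpf38a (8.58 and 8.32). Orc6 and Gins1 were the 2 members below their neighbours, Vps35 (39.2 against 50.4) and Abhd12 (15.2 against 28.2). These pairs were compared on the exon union alone. Other genes of like level were not compared with their neighbours, so whether such differences are particular to replication genes was not tested. In CPM not divided by length, Orc1 (4.90 against 5.46 log2 CPM) and Cdc45 (6.39 against 6.60) were also below their neighbours.

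**Figure D5:**
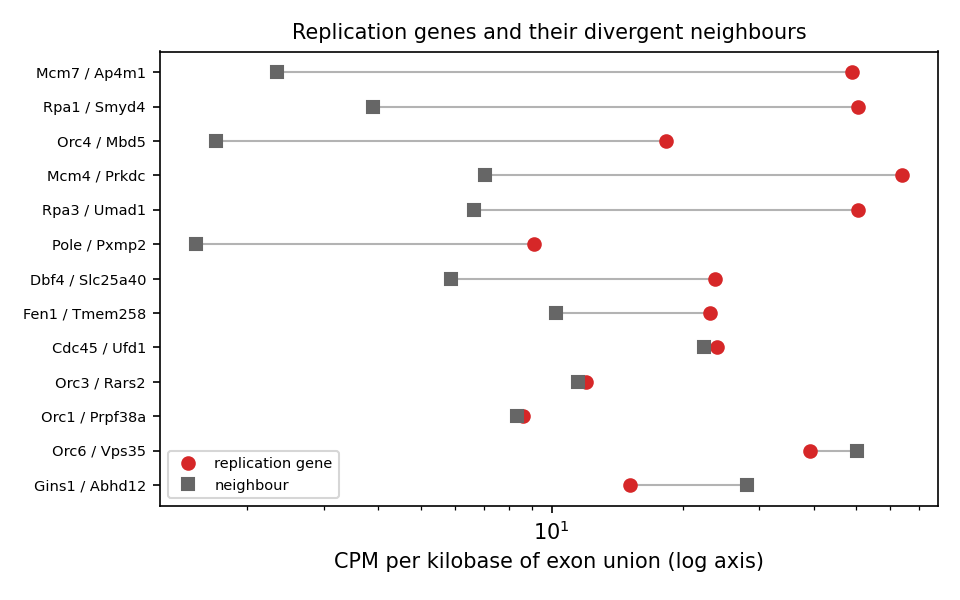
Level in CPM per kilobase of exon union (log axis) of 13 replication genes (red circles) and of the protein-coding gene that starts within 1000 bases on the other strand (grey squares). The replication gene is the higher in 11 pairs, by more than 2-fold in 8 of them. The median percentile of all the replication genes, in CPM per kilobase among protein-coding genes, was 86.7. Genes of like level were not compared with their own neighbours, so whether these counts are particular to replication genes was not tested.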

How the data were processed

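B16F10 cells treated with OZO (n = 3 libraries) or OLO (n = 3) were profiled by paired-end RNA-seq. The authors aligned reads to mm10 with HISAT2 (2.1.0), counted genes with featureCounts (2.1.1) and applied limma-voom (limma 3.58.1). The value used is the deposited average log2 CPM of each gene over all 6 libraries, to which voom adds 0.5 reads per count. Normalization factors, filters and strand setting are not given in the sources used here. The deposited table also holds the authors' own comparison of OZO with OLO, as fold changes, moderated statistics, log odds and p-values, and these were not used. It has 0 columns for single libraries, so the planned count test could not be run.

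Genes without reads (6025) share the lowest value, from which the geometric mean library size and the reads per gene were recovered (checked on simulated counts). Of 24126 Ensembl identifiers, 23906 were found in GENCODE M21. Levels were divided by the exon union, and by the longest transcript or coding length as alternatives. Transcripts were compared with blastn (2.17.0) and promoters searched in RefSeq windows, with Python 3.11.15, pandas 2.3.3 and scipy 1.17.1. The 45 members and all lists were chosen with earlier results of these data known, and every member is named. Of a second replication list, the 3 highest and 3 lowest genes per kilobase are named.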

Additional observations from a re-analysis of the deposited data

How the results depend on the processing

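No paired analysis was possible because each gene has 1 mean over OZO and OLO libraries together. Leaving out a library, DESeq2 and other scalings were not run for the same reason. All 45 genes also passed limits of 0.5 and 5 CPM, and the median level was 6.06 log2 CPM without the added 0.5 reads. The members' median percentile was 86.5 among all genes, 82.7 among genes with reads, 82.5 among protein-coding genes and 69.1 among genes with at least 1 CPM. Their median of 18.3 CPM per kilobase became 27.0 with the longest transcript, 49.5 with the coding length and 19.6 for the 23 genes that overlap no other gene, and was 18.3 without the genes that have a copy. With the longest transcript and the coding length, the range within ORC was 7.69-fold and 13.3-fold, within MCM2-7 1.95-fold and 1.96-fold, within GINS 11.8-fold and 3.39-fold, within RFC 3.55-fold and 2.19-fold, and within RPA 2.67-fold and 2.24-fold. Of the 5 highest genes, Pcna and Mcm6 were shared by the 3 lengths. The E2F words were present for 25% of member genes in the part before the start (2.46% of all genes), and their first 6 letters for 75%, beside 49.1% of all genes. With starts apart only, the definition counted first, 17.8% of members had a divergent neighbour, beside 6.95% of all protein-coding genes and 11.2% of those with at least 1 CPM. Neither definition was among the planned results.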

Other observations

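A second list held other replication genes. All 40 genes of that list, which names further polymerase subunits, checkpoint factors and histone chaperones, were above 1 CPM, with a median of 15.0 CPM per kilobase and an interquartile range from 7.46 to 27.6, beside 18.3 and a range from 12.0 to 41.5 for the 45 genes described above. The highest were Top2a (139), a topoisomerase that untangles DNA, Ssrp1 (113), a subunit of the histone chaperone FACT, and Pole4 (89.8), a small subunit of polymerase epsilon. The lowest were Chtf18 (1.89), part of an alternative clamp loader, Pold4 (1.68), the smallest subunit of polymerase delta, and Mcm9 (1.60), a relative of the MCM helicase genes that is not part of the ring.

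Lists of genes for neighbouring tasks gave other medians. The 30 mitosis genes had a median of 30.5 CPM per kilobase and an interquartile range from 19.0 to 49.8, and the 32 DNA repair genes had 8.96 and an interquartile range from 4.90 to 18.0. These are descriptions of lists written for this purpose and were not tested.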
